A study of Mus musculus with 9 samples.

Results

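Tyk2 encodes a Janus kinase that sits on the receptors for type I interferon, IL-12 and IL-23, and it lies in a gene-dense stretch of mouse chromosome 9. The genes described here are 10 named neighbours of Tyk2 in that stretch: Dnmt1, Icam1, Icam4 and Raver1 on the side of the centromere, and Cdc37, Pde4a, Keap1, S1pr5, Atg4d and Kri1 on the far side. They were listed by their position in the platform annotation, with earlier results of these data known. The list leaves out some genes that lie between its members, among them S1pr2, Mrpl4 and Icam5. Each gene was read from its brightest probe set. A value could be read for 9 of the 10, which all passed the filter on low values. In all, 12579 genes were tested. Raver1, the immediate neighbour of Tyk2, was annotated only on probe sets that it shares with other genes, so no value is given for it.

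Arrays had been run on natural killer (NK) cells enriched from the spleen of female C57BL/6N mice with DX5 magnetic beads and expanded for 7 days in 5000 U/ml recombinant human IL-2. The arrays were labelled Tyk2-/- (mice that lack Tyk2), Tyk2K923E (mice that make a kinase-inactive Tyk2) or WT (wild type). Each genotype had 3 arrays, 1 from each of 3 independent experiments, and each array held RNA of cells pooled from 3-4 mice, so an SD here is the spread between pools. The same 3 WT arrays served in both comparisons of a mutant with WT. The part of Tyk2 that was deleted, and how long a stretch of donor chromosome the mutant lines carry around the locus, are not given in the sources used here. Each array measured a bulk culture, in which fewer cells of a type and less RNA per cell cannot be told apart.

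A gene next to an engineered locus can differ between mutant and WT cells for reasons that do not involve the engineered protein, since regulatory DNA may be altered in cis and flanking DNA of the targeted line may differ from that of the WT strain. For that reason the neighbours of a targeted gene are commonly examined beside it. The neighbours of Tyk2 do varied work, though Icam1 and Icam4 both encode adhesion molecules. Cdc37 hands protein kinases to the chaperone HSP90, Icam1 is the adhesion ligand of the leukocyte integrin LFA-1, S1pr5 is a sphingosine-1-phosphate receptor that guides NK cells out of bone marrow and lymph nodes, and Dnmt1 copies DNA methylation after replication.

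The RefSeq order of protein-coding genes (GRCm38.p6) from Dnmt1 to Kri1 holds 16 genes, 14 of them with an unshared probe set, and 13 were tested. Cdc37 is the next gene after Tyk2 on the far side, followed by Pde4a, Keap1, S1pr5, Atg4d and Kri1. On the side of the centromere Raver1 comes first, and Icam4, Icam1 and Dnmt1 stand 5, 6 and 9 genes away.

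The 250 bases before the annotated start of 3 of these genes are shown, because Icam1 and Cdc37 had the smallest p-values among the neighbours and S1pr5 is the receptor with a known role in NK cell traffic. Sequences are from RefSeq (GRCm38.p6), 5′ to 3′ on the strand of the gene. Capitals mark the STAT-type motif TTCNNNGAA in Icam1, at bases 42 to 34 before the start, and the KLF-type motif CCACCC, on either strand, in S1pr5. Icam1 lies at chr9:21015690-21015939 on the plus strand, Cdc37 at chr9:21149935-21150184 on the minus strand and S1pr5 at chr9:21248444-21248693 on the minus strand.
Icam1: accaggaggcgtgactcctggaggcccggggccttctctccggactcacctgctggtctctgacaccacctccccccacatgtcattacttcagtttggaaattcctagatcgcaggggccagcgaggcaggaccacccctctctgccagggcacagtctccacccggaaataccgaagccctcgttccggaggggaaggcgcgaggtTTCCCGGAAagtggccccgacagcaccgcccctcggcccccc
Cdc37: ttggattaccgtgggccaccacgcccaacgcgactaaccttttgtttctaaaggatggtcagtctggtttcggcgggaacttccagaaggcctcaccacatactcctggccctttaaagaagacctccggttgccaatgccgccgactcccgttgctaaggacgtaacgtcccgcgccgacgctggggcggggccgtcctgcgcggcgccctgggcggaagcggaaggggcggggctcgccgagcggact
S1pr5: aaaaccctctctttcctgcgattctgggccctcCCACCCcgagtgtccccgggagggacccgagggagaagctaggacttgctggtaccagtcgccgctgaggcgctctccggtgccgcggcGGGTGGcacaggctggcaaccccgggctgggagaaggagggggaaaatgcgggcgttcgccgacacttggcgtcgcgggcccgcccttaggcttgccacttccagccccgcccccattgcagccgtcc

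Motif letters were searched on both strands of the 250 bases before each RefSeq start. The STAT-type motif TTCNNNGAA was in the window of 1 of the 10 neighbours, Icam1, and in 7.02% of 32851 windows of the same length. CCACCC was in the first listed window of 4 of the 10 neighbours (Icam1, Pde4a, S1pr5 and Kri1), against 28.1% of all windows, and for Dnmt1 it was only in windows of its other annotated starts. The interferon-stimulated response element (ISRE), the T-box motif AGGTGTGA and the antioxidant-response motif TGACNNNGC were in no window of the 10 neighbours, and in 2.98%, 1.12% and 10.2% of all windows. A match describes letters in these windows and is no evidence of binding.

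Tyk2 itself was measured by 1 probe set. Its log2 values were 9.55, 8.63 and 8.85 in Tyk2-/- cells of experiments 1, 2 and 3, against 8.63, 8.43 and 8.52 in Tyk2K923E cells and 8.68, 8.56 and 8.63 in WT cells. The Tyk2-/- values of experiments 1 and 3 stood above all Tyk2K923E and WT values, and that of experiment 2 lay among them. Within experiments Tyk2-/- was above WT in 3 of 3, by 0.88, 0.06 and 0.23. The mean difference of Tyk2-/- from WT was 0.39 (SE 0.21, 95% interval -0.08 to 0.86, limma adjusted p = 1), and it was 0.12 without the Tyk2-/- array of experiment 1. With experiments paired the interval was 0.05 to 0.73 and the limma adjusted p 0.488. Tyk2-/- exceeded Tyk2K923E by 0.49 (95% interval 0.02 to 0.95, limma adjusted p = 1, or 0.452 paired), also in 3 of 3 experiments. Because the position of the probes relative to the deleted part is not given, this value does not check the genotype labels.

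Across the 9 measured neighbours, none passed a limma adjusted p of 0.05 in Tyk2-/- or Tyk2K923E cells against WT, or between the mutants, with or without pairing by experiment. Over all genes tested, 0.0318% passed in Tyk2-/- cells against WT, 0.00795% in Tyk2K923E cells against WT and 0.0238% between Tyk2-/- and Tyk2K923E. With experiments paired, these shares were 0.0874%, 0.0874% and 0.0238%. At an unadjusted limma p under 0.05 stood 1 neighbour in Tyk2-/- cells (Cdc37) and 2 in Tyk2K923E cells (Cdc37 and Icam1), against 2.08% and 4.21% of all genes; with experiments paired the counts were the same, against 9.08% and 10% of all genes. The median difference from WT over the 9 neighbours was -0.02 in Tyk2-/- cells and -0.05 in Tyk2K923E cells on the log2 scale, and the medians of all genes were 0.0045 and 0.0020.

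**Figure D1:**
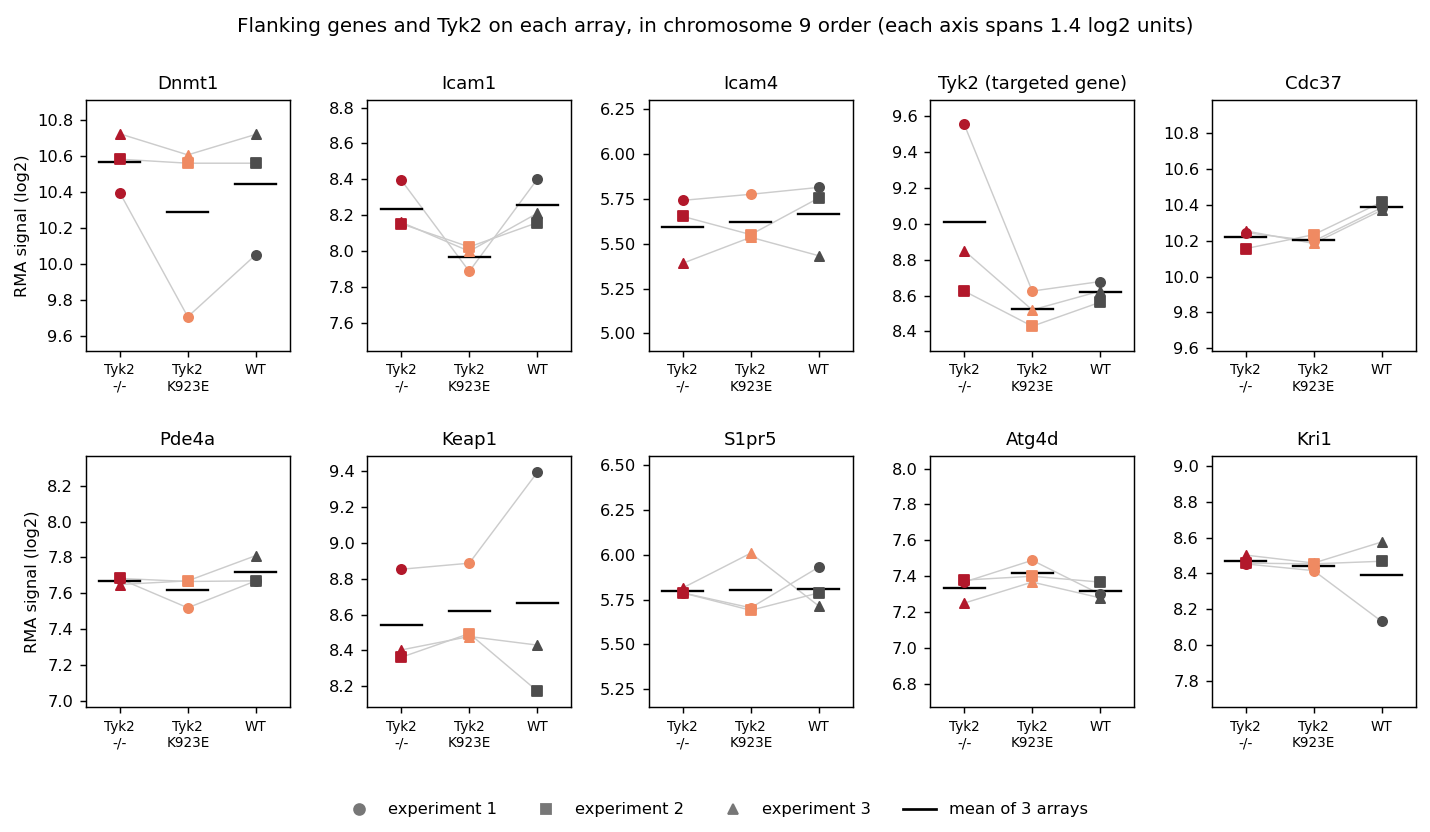
Deposited log2 values of the 9 measured neighbours and Tyk2, 1 panel per gene in chromosome order, with Tyk2-/- at the left, Tyk2K923E in the middle and WT at the right. Points are arrays, marked by experiment, lines are means of 3 arrays, and each y axis spans the same number of log2 units. In the Cdc37 panel all 6 mutant arrays lie below the 3 WT arrays, and in the Icam1 panel only the Tyk2K923E arrays do.

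Cdc37, the nearest neighbour on the far side, lay below WT in both mutants in all 3 experiments. Its log2 values were 10.24, 10.16 and 10.25 in Tyk2-/- cells of experiments 1, 2 and 3, and 10.20, 10.23 and 10.18 in Tyk2K923E cells, against 10.38, 10.42 and 10.37 in WT cells. All 6 mutant arrays lay below all 3 WT arrays, and the mutants overlapped with each other. Of all genes tested, 2.74% had Tyk2-/- wholly below WT. Of all genes tested, 1.1% (138 genes) had both mutants below WT without overlap.

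The mean of Cdc37 was 10.22 ± 0.055 in Tyk2-/- cells, 10.21 ± 0.025 in Tyk2K923E cells and 10.39 ± 0.023 in WT cells (SD, n = 3 each). These means put the mutants at 88.8% (Tyk2-/-) and 88.0% (Tyk2K923E) of the WT signal. The log2 difference was -0.17 in Tyk2-/- cells (95% interval -0.30 to -0.04) and -0.18 in Tyk2K923E cells (-0.32 to -0.05). The limma p adjusted over all genes was 1 in Tyk2-/- cells and 0.897 in Tyk2K923E cells, and with experiments paired the adjusted p was 0.458 for Tyk2-/- and 0.332 for Tyk2K923E, so neither difference passed the threshold. Within experiments the difference from WT was -0.14, -0.26 and -0.12 in Tyk2-/- cells and -0.19, -0.18 and -0.19 in Tyk2K923E cells. A two-sided exact permutation test on 3 against 3 arrays gave p = 0.1 in both comparisons, the smallest it can give.

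Tyk2-/- and Tyk2K923E cells differed in Cdc37 by 0.01 (95% interval -0.12 to 0.15). The interval leaves room for a difference nearly as large as that of either mutant from WT.

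Icam1 was the other neighbour with a separated group, and there the mutants differed from each other. Its log2 values were 8.40, 8.15 and 8.16 in Tyk2-/- cells of experiments 1, 2 and 3, against 7.89, 8.02 and 7.999 in Tyk2K923E cells and 8.40, 8.16 and 8.21 in WT cells. Every Tyk2K923E array lay below every array of the other genotypes, while Tyk2-/- and WT overlapped. Of all genes tested, 3.8% had Tyk2K923E wholly below WT.

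The mean of Icam1 was 7.97 ± 0.073 in Tyk2K923E cells and 8.26 ± 0.13 in WT cells (SD, n = 3 each), or 82.0% of the WT signal. The log2 difference was -0.29 (SE 0.096, 95% interval -0.51 to -0.07), with a limma adjusted p of 0.991, or 0.301 with experiments paired. It was -0.51, -0.14 and -0.21 in experiments 1, 2 and 3, and it was -0.17 without experiment 1. In Tyk2-/- cells Icam1 differed from WT by -0.02 (95% interval -0.24 to 0.20).

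Set directly against Tyk2K923E, Icam1 was 0.27 log2 units higher in Tyk2-/- cells (95% interval 0.05 to 0.49). The limma adjusted p was 1, or 0.452 with experiments paired, and the difference was 0.15 without experiment 1. Of the 9 neighbours, 1 reached an unadjusted p under 0.05 in this comparison, against 2.41% of all genes. Tyk2-/- stood wholly above Tyk2K923E for 1 neighbour, Icam1, and for 2.89% of all genes. In the paired fit Dnmt1 also had an unadjusted p under 0.05, as did 9.68% of all genes, with a difference of 0.28 and a limma adjusted p of 0.504. The difference was 0.07 without experiment 1 and -0.02 without the Tyk2K923E array of that experiment, and the Dnmt1 values of the mutants overlapped.

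**Figure D2:**
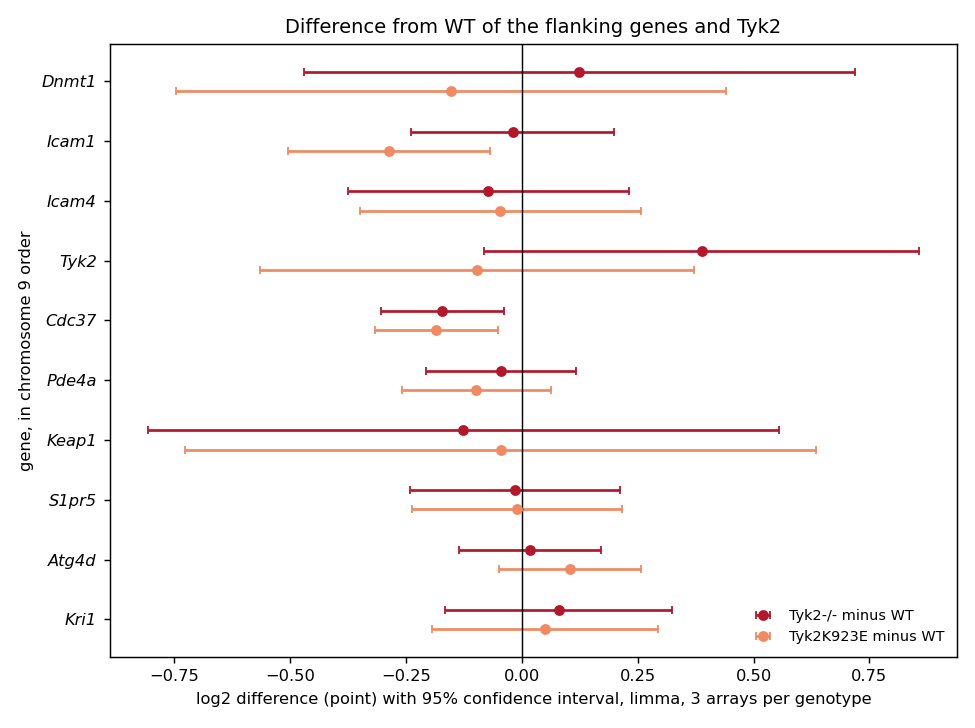
Log2 difference from WT of Tyk2 and its 9 measured neighbours in chromosome order, with Tyk2-/- before Tyk2K923E for each gene. Points are limma estimates over 3 arrays a group and bars are 95% intervals. The intervals exclude 0 for Cdc37 in both mutants and for Icam1 in Tyk2K923E, and include it for the others.

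Icam4, an adhesion molecule best known from red blood cells, gave 5.74, 5.65 and 5.39 in Tyk2-/- cells, 5.78, 5.55 and 5.54 in Tyk2K923E cells and 5.81, 5.76 and 5.43 in WT cells. The genotypes overlapped in every comparison, and its signal reached the median of its array on 7 of 9 arrays, against 9 of 9 for the other 8 neighbours. Differences from WT were -0.07 in Tyk2-/- cells (95% interval -0.37 to 0.23) and -0.05 in Tyk2K923E cells (-0.35 to 0.26).

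S1pr5, the egress receptor, showed no separation of the genotypes. Its log2 values were 5.79, 5.79 and 5.82 in Tyk2-/- cells, 5.70, 5.69 and 6.01 in Tyk2K923E cells and 5.93, 5.79 and 5.71 in WT cells of experiments 1, 2 and 3. The highest and the lowest of the 9 values both came from Tyk2K923E cells. The difference from WT was -0.01 in Tyk2-/- cells (95% interval -0.24 to 0.21) and -0.01 in Tyk2K923E cells (-0.24 to 0.22), so the arrays could have missed a difference of up to about those bounds in either direction. Its values stood not far above the median of an array, which ran from 5.42 to 5.48 over all probe sets.

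Dnmt1, the maintenance DNA methyltransferase, varied more between experiments than between genotypes. It gave 10.40, 10.58 and 10.73 in Tyk2-/- cells, 9.70, 10.56 and 10.61 in Tyk2K923E cells and 10.05, 10.56 and 10.72 in WT cells. In all 3 genotypes experiment 1 was the lowest, and the spread there produced wide intervals. The difference from WT was 0.12 in Tyk2-/- cells (95% interval -0.47 to 0.72) and -0.15 in Tyk2K923E cells (-0.75 to 0.44).

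Pde4a, which breaks down cyclic AMP, gave 7.68, 7.68 and 7.65 in Tyk2-/- cells, 7.52, 7.67 and 7.67 in Tyk2K923E cells and 7.67, 7.67 and 7.81 in WT cells. Differences from WT were -0.05 (95% interval -0.21 to 0.12) in Tyk2-/- cells and -0.10 (-0.26 to 0.06) in Tyk2K923E cells. Atg4d, a protease of the autophagy pathway that processes ATG8 proteins, gave 7.37, 7.38 and 7.25 in Tyk2-/- cells, 7.49, 7.40 and 7.37 in Tyk2K923E cells and 7.30, 7.37 and 7.28 in WT cells. Its differences from WT were 0.02 (-0.14 to 0.17) in Tyk2-/- cells and 0.10 (-0.05 to 0.26) in Tyk2K923E cells. These 2 genes and Cdc37 had the narrowest intervals of the set.

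Kri1, a nucleolar protein known from yeast for its part in making the small ribosomal subunit, gave 8.45, 8.46 and 8.50 in Tyk2-/- cells, 8.42, 8.45 and 8.46 in Tyk2K923E cells and 8.13, 8.47 and 8.58 in WT cells. Only the WT array of experiment 1 stood away from the rest, below them. The difference from WT was 0.08 in Tyk2-/- cells (95% interval -0.17 to 0.32) and 0.05 in Tyk2K923E cells (-0.19 to 0.29).

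Keap1, the adaptor that marks the stress-response factor NRF2 for degradation, was listed on 2 probe sets with different profiles. The brighter gave 8.85, 8.36 and 8.40 in Tyk2-/- cells, 8.89, 8.49 and 8.48 in Tyk2K923E cells and 9.39, 8.17 and 8.43 in WT cells. It was highest in experiment 1 in all 3 genotypes and spanned 1.22 log2 units over the 9 arrays. The dimmer gave 8.005, 7.88 and 8.05 in Tyk2-/- cells, 7.994, 7.995 and 8.005 in Tyk2K923E cells and 8.005, 8.02 and 8.08 in WT cells, a span of 0.205, with no such rise in experiment 1.

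The difference of Keap1 from WT on the brighter probe set was -0.13 in Tyk2-/- cells (95% interval -0.81 to 0.55) and -0.05 in Tyk2K923E cells (-0.73 to 0.63). On the dimmer probe set it was -0.059 in Tyk2-/- cells and -0.038 in Tyk2K923E cells. Keap1 lies on the minus strand. Probe set numbers on chromosome 9 fell into 2 runs, the first with 583 probe sets of which 96.7% named plus-strand genes and the second with 518 of which 96.3% named minus-strand genes. The brighter Keap1 probe set was numbered in the first run and the dimmer in the second, and every other neighbour stood in the run of its own strand. Whether the brighter probe set reads Keap1 RNA was not tested, so the Keap1 values are given for both. The brighter stands for Keap1 in the median difference and the median range over the neighbours.

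**Figure D3:**
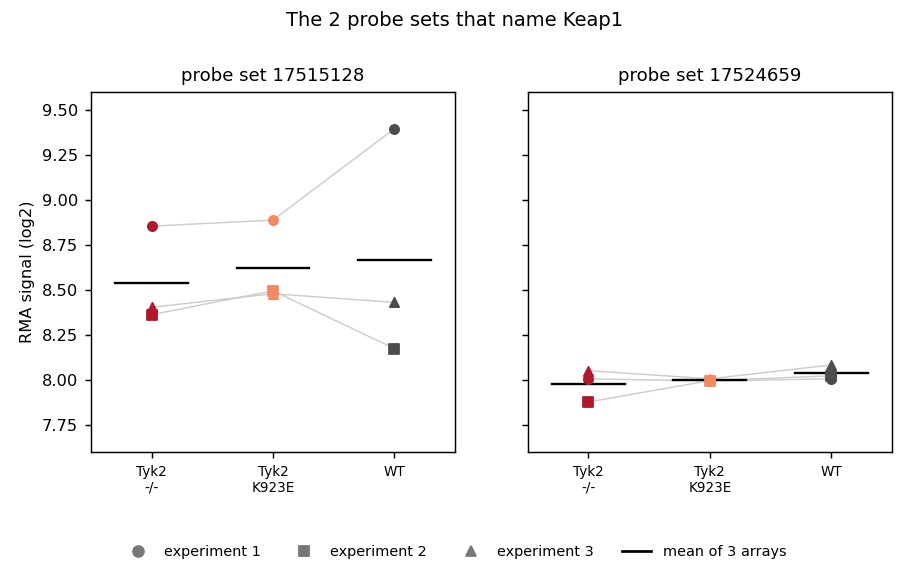
Deposited log2 values of the brighter and the dimmer probe set listed for Keap1, by genotype (Tyk2-/-, Tyk2K923E, WT from left to right), with points marked by experiment. The brighter spans 1.22 log2 units with experiment 1 on top, and the dimmer spans 0.205.

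Experiment accounted for more of the spread than genotype did. The first principal component of all genes held 61% of the variance and set the 3 arrays of experiment 1 apart from the other 6. Among the neighbours, Keap1 (brighter probe set) was wholly higher and Dnmt1 wholly lower in experiment 1, while 14.5% of all genes were wholly higher there and 18.7% wholly lower. Kri1 was also wholly lower there, but barely. Its highest value in experiment 1 was 8.45295 (Tyk2-/-), and its lowest in the other experiments was 8.45339 (Tyk2K923E of experiment 2). Over the 9 arrays the neighbours had a median range of 0.423 log2 units, against 0.431 for all genes tested.

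The other tested genes between Dnmt1 and Kri1 were S1pr2, a second sphingosine-1-phosphate receptor, Mrpl4, a protein of the mitochondrial ribosome, and Icam5, an adhesion molecule best known from neurons. S1pr2 differed from WT by -0.11 in Tyk2-/- cells and -0.05 in Tyk2K923E cells, Mrpl4 by 0.07 in both, and Icam5 by -0.11 in Tyk2-/- cells and 0.04 in Tyk2K923E cells. No unpaired p was under 0.05 for these 3 genes. With experiments paired, Icam5 reached that level between Tyk2-/- and Tyk2K923E, as did 9.68% of all genes. Its difference was -0.15 (-0.26, -0.15 and -0.05 in experiments 1, 2 and 3), with a limma adjusted p of 0.494.

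A wider window held the 25 tested genes nearest to Tyk2 on either side. None of these 50 genes passed limma's adjusted threshold in any comparison, with or without pairing. An unadjusted p under 0.05 was reached by 3 of 50 in Tyk2-/- cells and 4 of 50 in Tyk2K923E cells against WT, and by 1 of 50 between Tyk2-/- and Tyk2K923E. In 12 successive blocks of 50 genes farther out on the far side, that count ran from 0 to 2 in Tyk2-/- cells, from 1 to 4 in Tyk2K923E cells, and from 0 to 5 between the mutants. As a share, the window held 2% between Tyk2-/- and Tyk2K923E, beside 2.41% of all genes. Against WT it held 6% in Tyk2-/- cells and 8% in Tyk2K923E cells, beside 2.08% and 4.21% of all genes. Higher shares stood at both ends of the chromosome, with 3 of 28 (Tyk2-/-) and 4 of 28 (Tyk2K923E) among the genes farthest out towards the centromere, and 2 of 11 (Tyk2-/-) and 4 of 11 (Tyk2K923E) among the last genes of the far side. With experiments paired the window's count was 5 of 50 in Tyk2-/- cells and 6 of 50 in Tyk2K923E cells, where the far blocks ran from 1 to 5 and from 2 to 9. These paired shares were 10% and 12%, beside 9.08% and 10% of all genes. Between Tyk2-/- and Tyk2K923E the paired count was 7 of 50, or 14%, beside 9.68% of all genes and 2 to 8 in the far blocks.

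In Tyk2-/- cells the smallest p-values in that window besides Cdc37 belonged to 3 zinc finger genes. Zfp846 gave 5.97, 6.35 and 6.17 in Tyk2-/- cells, against 6.70, 6.64 and 6.45 in WT cells, a difference of -0.43 (limma adjusted p = 1). Zfp317 differed by -0.23 and Zfp266 by -0.14. All 3 were lower in Tyk2-/- cells in each of the 3 experiments, and none passed the adjusted threshold. The same 3 genes were also below WT in Tyk2K923E cells in each experiment. Their differences there were -0.21 (Zfp846), -0.15 (Zfp317) and -0.08 (Zfp266). In Tyk2K923E cells the smallest p-values besides Cdc37 and Icam1 belonged to AB124611, Swsap1 and Panx1. AB124611 gave 7.77, 7.83 and 8.17 in Tyk2K923E cells, against 8.50, 8.52 and 8.43 in WT cells, a difference of -0.56 (limma adjusted p = 0.828). Swsap1 differed by 0.19 on its brightest probe set and by -0.05 as the mean over its probe sets, and Panx1, a membrane channel, differed by -0.23. The differences in Tyk2-/- cells were -0.26 for AB124611, 0.03 for Swsap1 (brightest probe set) and -0.11 for Panx1.

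**Figure D4:**
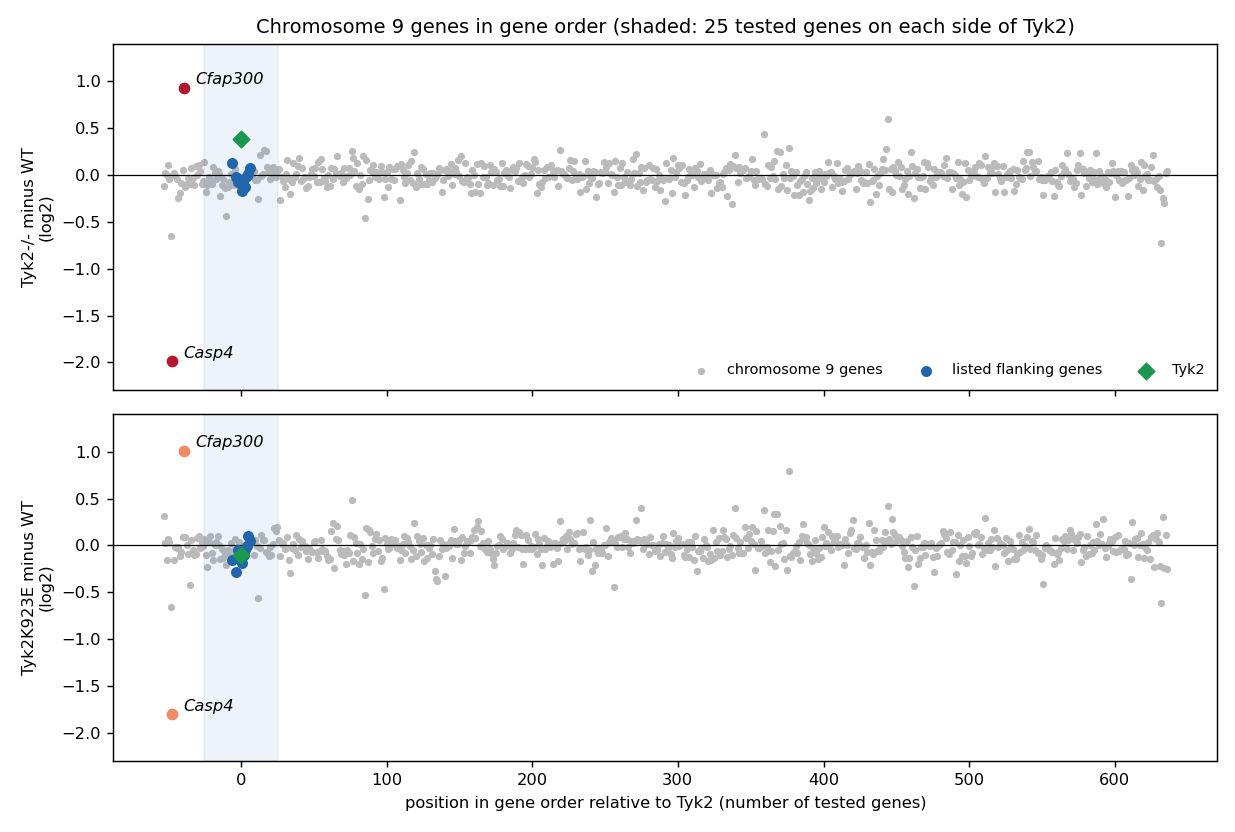
Log2 difference from WT of the 690 tested genes of chromosome 9 by their order from Tyk2 (0), with Tyk2-/- in the upper panel and Tyk2K923E in the lower. The neighbours of Tyk2 are marked and lie near 0, and Casp4 and Cfap300, near the centromere end, are the genes past the adjusted threshold in at least 1 paired fit.

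Over the whole of chromosome 9, with 690 tested genes of which 53 lie between the centromere and Tyk2, no gene passed without pairing. With experiments paired, Casp4 passed in both mutants and Cfap300 passed in Tyk2K923E cells, 123 and 103 protein-coding genes away from Tyk2 on the side of the centromere. Casp4, an inflammatory caspase that senses cytosolic lipopolysaccharide, gave 5.70, 6.13 and 5.86 in Tyk2-/- cells, 6.31, 6.14 and 5.81 in Tyk2K923E cells and 8.56, 7.75 and 7.35 in WT cells. It was 3.97-fold lower in Tyk2-/- cells (paired adjusted p = 0.0353) and 3.49-fold lower in Tyk2K923E cells (0.0462). It lies farther from Tyk2 than every neighbour described above.

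Cfap300, a gene of motile cilia, gave 6.49, 6.45 and 5.80 in Tyk2-/- cells, 6.86, 6.19 and 5.91 in Tyk2K923E cells and 5.52, 5.40 and 5.02 in WT cells. The mutant arrays all lay above the WT arrays, with a difference of 0.93 (paired adjusted p = 0.0531) in Tyk2-/- cells and 1.01 (0.0375) in Tyk2K923E cells. The Cfap300 signal reached the median of its array on 7 of 9 arrays. Its WT values of experiments 2 and 3 (5.40 and 5.02) lay below the array medians, which ran from 5.42 to 5.48. The size of the Cfap300 difference thus rests in part on low WT signals. Of the 12579 genes tested, 325 had Tyk2-/- wholly above WT and 431 had Tyk2K923E wholly above WT. By the paired fit alone, Casp4 fell in both mutants and Cfap300 rose in Tyk2K923E cells, and leaving out any experiment ended the Cfap300 call. For Casp4, the paired adjusted p was 0.00808 (Tyk2-/-) and 0.0227 (Tyk2K923E) without experiment 1, and it was above the threshold without experiment 2 or 3.

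Partner genes of the neighbours were read from 9 lists, with 116 of 130 genes tested. None of the 116 passed limma's adjusted threshold in any comparison, with or without pairing. At an unadjusted limma p under 0.05 stood 1 of 116 in Tyk2-/- cells and 2 of 116 in Tyk2K923E cells. These shares were 0.862% and 1.72%, beside 2.08% and 4.21% of all genes. With experiments paired the counts were 21 of 116 in Tyk2-/- cells and 10 of 116 in Tyk2K923E cells, or 18.1% and 8.62%, beside 9.08% and 10% of all genes. Of all genes, 51.9% lay above 0 in Tyk2-/- cells and 50.8% in Tyk2K923E cells, and the counts of every list below stand beside these shares. Genes of a list were read on the same arrays, so they are not independent replicates. For Cdc37, the HSP90 chaperone list had 13 of 13 tested genes above 0 in Tyk2-/- cells (median 0.09) and 11 of 13 in Tyk2K923E cells (median 0.05). Among them Hspa4, a partner of HSP70, averaged 10.98 in Tyk2-/- cells, 10.99 in Tyk2K923E cells and 10.81 in WT cells.

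For Icam1, the integrin list had 6 of 12 genes above 0 in Tyk2-/- cells and 4 of 12 in Tyk2K923E cells. Itgax, the integrin chain CD11c, averaged 8.14 ± 0.29 in Tyk2-/- cells, 8.34 ± 0.11 in Tyk2K923E cells and 9.02 ± 0.28 in WT cells (SD, n = 3 each). Its limma adjusted p was 0.871 in Tyk2-/- cells and 0.717 in Tyk2K923E cells. Itgam, the integrin chain CD11b, averaged 7.53 ± 1.07 in Tyk2-/- cells, 7.99 ± 0.64 in Tyk2K923E cells and 8.71 ± 0.75 in WT cells, with a paired adjusted p of 0.0649 for Tyk2-/- and 0.168 for Tyk2K923E.

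For S1pr5, the list of sphingosine-1-phosphate and egress genes had 4 of 15 genes above 0 in Tyk2-/- cells (median -0.09) and 5 of 15 in Tyk2K923E cells (median -0.03). S1pr4, another receptor of the family, averaged 8.24 ± 0.29 in Tyk2-/- cells, 8.19 ± 0.13 in Tyk2K923E cells and 8.40 ± 0.066 in WT cells. S1pr3, a further receptor, went the other way, with 6.00 ± 0.29 in Tyk2-/-, 6.23 ± 0.52 in Tyk2K923E and 5.72 ± 0.26 in WT cells. It was above WT in 1 of 3 experiments in Tyk2-/- cells and in 3 of 3 in Tyk2K923E cells (paired limma adjusted p 0.767 and 0.542). Ccr7 differed from WT by 0.17 in Tyk2-/- cells and by -0.03 in Tyk2K923E cells. Sphk1, a kinase that makes sphingosine-1-phosphate, averaged 5.30 ± 0.21 in Tyk2-/- cells, 5.50 ± 0.092 in Tyk2K923E cells and 5.52 ± 0.092 in WT cells.

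For Keap1, 12 of 17 tested genes of the NRF2 list lay above 0 in Tyk2-/- cells and 11 of 17 in Tyk2K923E cells. Slc7a11, the cystine transporter, averaged 6.49 in Tyk2-/- cells, 6.53 in Tyk2K923E cells and 6.04 in WT cells, and Nqo1, a classical NRF2 target, averaged 5.66 in Tyk2-/- cells, 5.47 in Tyk2K923E cells and 5.68 in WT cells. Me1, the cytosolic malic enzyme, averaged 5.91 ± 0.40 in Tyk2-/- cells, 6.42 ± 0.79 in Tyk2K923E cells and 5.62 ± 0.28 in WT cells (SD, n = 3 each), with a paired adjusted p of 0.205 in Tyk2K923E cells. Sqstm1, the autophagy receptor p62, averaged 11.32 ± 0.21 in Tyk2-/- cells, 11.61 ± 0.34 in Tyk2K923E cells and 11.59 ± 0.25 in WT cells, with a paired adjusted p of 0.377 in Tyk2-/- cells. For Kri1, all 11 tested genes of the small-subunit processome lay above 0 in both mutants, beside 51.9% (Tyk2-/-) and 50.8% (Tyk2K923E) of all genes. The medians were 0.15 in Tyk2-/- cells and 0.09 in Tyk2K923E cells. None of the 11 had an unadjusted limma p under 0.05 without pairing, beside 2.08% (Tyk2-/-) and 4.21% (Tyk2K923E) of all genes. With experiments paired 5 had in Tyk2-/- cells and 1 in Tyk2K923E cells, beside 9.08% and 10% of all genes. Nop14, a factor of the processome, averaged 9.23 in Tyk2-/- cells, 9.16 in Tyk2K923E cells and 9.01 in WT cells.

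The remaining lists belong to Pde4a, Dnmt1, Atg4d and Raver1. The cyclic AMP list had 4 of 13 genes above 0 in both mutants (medians -0.02 in Tyk2-/- and -0.03 in Tyk2K923E). DNA methylation genes were above 0 in 9 of 13 cases in Tyk2-/- cells (median 0.10) and in 7 of 13 in Tyk2K923E cells (median 0.01). The autophagy list had 7 of 15 above 0 in both mutants, and within it Map1lc3b, the ATG8 protein LC3B, averaged 9.14 in Tyk2-/- cells, 9.18 in Tyk2K923E cells and 9.47 in WT cells. The splicing list of Raver1 had 4 of 7 genes above 0 in Tyk2-/- cells and 2 of 7 in Tyk2K923E cells.

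The labelled cell type was checked against marker genes. All 10 NK markers were above the array median on all 9 arrays, and their mean ran from 10.59 to 10.65 in Tyk2-/-, 10.50 to 10.65 in Tyk2K923E and 10.72 to 10.81 in WT arrays. Both mutants thus lay wholly below WT in that mean, as they did for Cdc37. T cell markers were also present, 6 of 7 above the median, with Cd3e at 10.49 to 11.80 over the arrays. Their mean was 8.30 to 8.66 in Tyk2-/-, 8.12 to 8.37 in Tyk2K923E and 8.33 to 8.68 in WT arrays, lower in part of the Tyk2K923E arrays, where Icam1 was also lower. The part of these marker levels in the Cdc37 and Icam1 values was not tested. Above the median on all arrays were 0 of 5 measured B cell markers, 1 of 7 of monocytes, macrophages and dendritic cells, 2 of 5 of neutrophils, 2 of 4 of basophils and mast cells, and 2 of 5 of endothelial and stromal cells. The mean of the basophil and mast cell markers was 5.98 to 6.24 in Tyk2-/-, 6.09 to 6.55 in Tyk2K923E and 5.87 to 5.995 in WT arrays, so Tyk2K923E lay wholly above WT there and Tyk2-/- overlapped with it.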

How the data were processed

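NK cell cultures of 3 genotypes were profiled on 9 Affymetrix arrays. The deposited values are log2 signals normalised with RMA in Partek 6.6, per the submitters' processing notes; the version of RMA and the genome build are not given in the sources used here. The values ran from 1.10 to 14.1 over 41345 probe sets and were not transformed again. The number of arrays limits the precision.

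Probe sets were named through the platform annotation: 23521 carried 1 symbol, 1814 several and 16010 were not listed. A probe set with 1 symbol was kept at or above the array median on at least 3 of 9 arrays, and the brightest stood for its gene, which left 12579 genes. RefSeq (GRCm38.p6), matched for 12511 genes, gave gene order and promoter sequences. Genes were compared with limma 3.58.1 in R 4.3.3 (lmFit and eBayes on group means of all 9 arrays), with Benjamini-Hochberg adjustment over all genes of a comparison and a threshold of 0.05. Differences are log2, genotype named first minus genotype named second.

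The replicate number marks a shared experiment, per the labels. Arrays of different genotypes correlated, in their deviations from the genotype mean, at 0.383 to 0.787 within an experiment and at -0.71 to 0.559 across experiments. Deviations from a genotype mean cancel out within that genotype, so the gap between these ranges is partly built in. Because the labels mark a shared experiment, the fit with experiment as a block is given beside the unpaired fit. The neighbours, role lists and markers were chosen with earlier results of these data known. Named genes are the neighbours, Tyk2, chromosome 9 genes past the threshold in either fit, the 3 other genes of smallest p near Tyk2 in each mutant, up to 3 role genes of smallest p in each list and mutant, and the genes most like S1pr5 and Icam1. Scripts were tested on simulated data.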

Additional observations from a re-analysis of the deposited data

How the results depend on the processing

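No neighbour of Tyk2 passed the adjusted threshold in any comparison under the alternatives run (other filters, probe set rules and normalisations, an intensity trend, the 2 compared genotypes alone, the replicate block, or an array or experiment left out), with a lowest adjusted p of 0.301 over 537 values. Cdc37 kept its direction against WT throughout, from -0.20 to -0.13 in Tyk2-/- cells and from -0.20 to -0.17 in Tyk2K923E cells, and Icam1 did so in Tyk2K923E cells, from -0.36 to -0.17. The replicate block (experiments paired) moved the genes called over the whole table from 4 to 11 for Tyk2-/- against WT and from 1 to 11 for Tyk2K923E against WT, and on chromosome 9 from 0 to 1 (Tyk2-/-) and 2 (Tyk2K923E); it changed no call of a neighbour. With the 2 compared genotypes alone the counts were 2 for Tyk2-/- and 0 for Tyk2K923E. With arrays or experiments left out, the calls ran from 0 to 4 (Tyk2-/- against WT), 0 to 6 (Tyk2K923E against WT) and 0 to 5 (Tyk2-/- against Tyk2K923E), and on chromosome 9 from 0 to 1 in each mutant against WT. The neighbours' median then ran from -0.050 to 0.017 in Tyk2-/- cells and from -0.15 to -0.012 in Tyk2K923E cells, beside SDs over experiments of 0.0229 and 0.0864.

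Several other differences changed sign when an array or experiment was left out; the cause was not tested. Tyk2 did not in any comparison, and Casp4, Cfap300, Zfp846, Zfp317, Zfp266, AB124611 and Panx1 did not in either mutant against WT. Swsap1 did not in Tyk2K923E cells against WT (0.13 to 0.26). Among the other differences of the neighbours, those that did not were Icam1 (0.15 to 0.34), Atg4d (-0.12 to -0.046) and Kri1 (0.013 to 0.041) between Tyk2-/- and Tyk2K923E. For Tyk2K923E against WT they were Atg4d (0.060 to 0.14) and Pde4a (-0.15 to -0.049). All other ranges given here cross 0. For Tyk2-/- against WT the ranges were -0.0089 to 0.058 (Atg4d), -0.073 to 0.26 (Dnmt1), -0.10 to 0.052 (Icam1), -0.19 to 0.030 (Icam4), -0.37 to 0.24 (Keap1), -0.051 to 0.17 (Kri1), -0.075 to 0.012 (Pde4a), -0.072 to 0.050 (S1pr5) and -0.031 to 0.067 (Swsap1). For Tyk2K923E against WT they were -0.35 to 0.14 (Dnmt1), -0.16 to 0.032 (Icam4), -0.29 to 0.32 (Keap1), -0.079 to 0.14 (Kri1) and -0.16 to 0.099 (S1pr5). Between Tyk2-/- and Tyk2K923E they were -0.015 to 0.059 (Cdc37), -0.016 to 0.44 (Dnmt1), -0.099 to 0.076 (Icam4), -0.24 to 0.053 (Keap1), -0.0018 to 0.089 (Pde4a) and -0.060 to 0.099 (S1pr5). S1pr5 between Tyk2-/- and Tyk2K923E, -0.0045 as deposited, was 0.012 with arrays centred on their median and 0.0064 after quantile normalisation. As a mean over its probe sets, Swsap1 was -0.012 in Tyk2-/- cells and -0.051 in Tyk2K923E cells against WT. Icam4, S1pr5, Cfap300 and Zfp846 did not pass a filter at the 70th percentile and have no value there. The other probe set of Keap1 was added as an alternative after the data were seen. Signals near the array median, such as those of Icam4 and S1pr5, limit what these arrays could show for those genes.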

Other observations

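Genes with the profile most like that of a neighbour over the 9 arrays were found by the root mean square difference of log2 values centred on each gene's own mean, over 12578 genes. For S1pr5 they were Cbr2 (0.0366), Prss54 (0.0389) and Fam219b (0.0468), the last of which is also on chromosome 9. For Icam1 they were Gm9258 (0.0649), Klf3 (0.0663), a transcription factor that recognises CACCC-type sequences, and Arl11 (0.0672), and for Cdc37, a gene chosen for this after its values were seen, Adcy7 (0.0346), Tbx21 (0.0382) and Tle4 (0.0405). Tbx21 encodes T-bet, a transcription factor that NK cells need to mature. These are descriptions of 9 arrays that share experiments, and they carry no test.

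Many deposited values were exactly equal between arrays. Of 41345 probe sets, 44.9% had a value shared by at least 2 arrays and 25.6% a value shared by at least 3 arrays. Among Tyk2 and the 9 measured neighbours (the brightest probe set of each), Tyk2, S1pr5, Pde4a and Atg4d each had 3 arrays with 1 identical value (8.62544, 5.78765, 7.66968 and 7.36711), and Dnmt1 had 2 (10.5614). For S1pr5 the arrays concerned were Tyk2-/- of experiments 1 and 2 and WT of experiment 2. How these equal values arose was not tested.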
